A study of Mus musculus with 16 samples.

Results

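*Hlf*, *Mecom*, *Prdm16* and *Mllt3*, 4 genes for transcriptional regulators of stem cell self-renewal, were followed through 5 populations of mouse hematopoietic stem cells (HSCs). They were taken by name from the table of gene counts, where each has 1 of the 46078 lines, and all 4 passed the filter on low counts that left 13661 genes to test. All samples are described as wild-type B6.SJL HSCs, sorted from bone marrow as KIT+ SCA1+ CD48- CD150+ cells without lineage markers. The HSCs were then split by their surface level of MAC-1, the integrin of CD11b and CD18. The steady-state (SS) populations came from untreated mice and were SS MAC-1- (n = 3) and SS MAC-1low (n = 3). The 4 week populations came from mice taken 4 weeks after 8000 LSK cells (KIT+ SCA1+ cells without lineage markers) had been transplanted into recipients irradiated with 900 cGy, and were 4 week MAC-1- (n = 3), 4 week MAC-1low (n = 4) and 4 week MAC-1+ (n = 3). The design asks whether the HSCs that carry more or less MAC-1 during regeneration differ from each other and from SS HSCs. The sort described in the labels names no donor marker. The study's methods tell donor from recipient cells by a CD45 allele in transplantation experiments without stating it for the RNA samples. In the study's serial transplantations the recipients were of a strain other than B6.SJL and also received bone marrow of that strain. Whether HSCs from these sources were left out of the sort, and so whether all 4 week HSCs were B6.SJL, is not known here. No age or sex of the mice is stated, and nothing states that the samples of a population came from separate mice, so p-values measure the spread between these samples only.

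The 4 genes act at different points of the stem cell program. *Hlf* encodes a PAR bZIP factor, a leucine zipper protein that holds HSCs in quiescence, and its loss exposes them to exhaustion under stress. *Mecom* encodes MDS1-EVI1 and EVI1, zinc finger proteins without which adult HSCs are lost, and *Prdm16* encodes their closest relative, a PR domain protein needed to keep HSC numbers. *Mllt3* encodes AF9, a YEATS domain reader of acylated histones that recruits DOT1L and the super elongation complex to active genes, and it maintains human HSCs in culture.

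Total counts ran from 13781278 to 28580658 per sample, and values are given as CPM, which set each count against the TMM-scaled total of its sample. The summed CPM of 7 HSC marker genes (*Slamf1*, *Kit*, *Ly6a*, *Procr*, *Fgd5*, *Hoxb5*, *Ctnnal1*) ran from 795 to 950 in the SS populations, from 452 to 601 in 4 week MAC-1-, from 803 to 1321 in 4 week MAC-1low and from 1227 to 1823 in 4 week MAC-1+ samples. Transcripts of 6 megakaryocyte markers (*Pf4*, *Gp9*, *Itga2b*, *Gp1bb*, *Ppbp*, *Vwf*) summed to between 4251 and 6744 CPM in 4 week MAC-1- samples and to between 156 and 1097 CPM in the others, and none of the 6 was at 0 in 4 week MAC-1- samples. *Cd48* and 3 other genes of the negative gate summed to between 71.7 and 133 CPM in 4 week MAC-1-, to between 60.3 and 107 CPM in 4 week MAC-1low and to at most 48.1 CPM in the other samples. Summed neutrophil markers reached 5644 CPM in replicate 3 of the 4 week MAC-1+ samples, against 124 and 739 CPM in its other 2 samples and at most 124 CPM elsewhere, while *Ly6g*, the antigen of mature neutrophils, was at 0 in both SS populations and in 4 week MAC-1- samples. The markers of B cells summed to at most 3.08 CPM and those of stroma to at most 22.6 CPM. The markers of monocytes summed to at most 0.237 CPM outside that replicate 3, which held 108 CPM. Summed erythroid markers lay between 77.3 and 170.4 CPM in 4 week MAC-1+ and at most at 69.1 CPM elsewhere. Summed T and NK cell markers lay between 16 and 176 CPM in 4 week MAC-1+ and between 163 and 644 CPM elsewhere. Of these, *Cd3e* was at 0 in all 4 week samples and *Klrb1c* in all 4 week MAC-1- samples, where the sum reached 644 CPM. Some results are given with and without that replicate 3. These are the tests of the 4 genes that passed between 4 week MAC-1+ and another population, the calls among related genes, and the correlations between the 4.

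**Figure D1:**
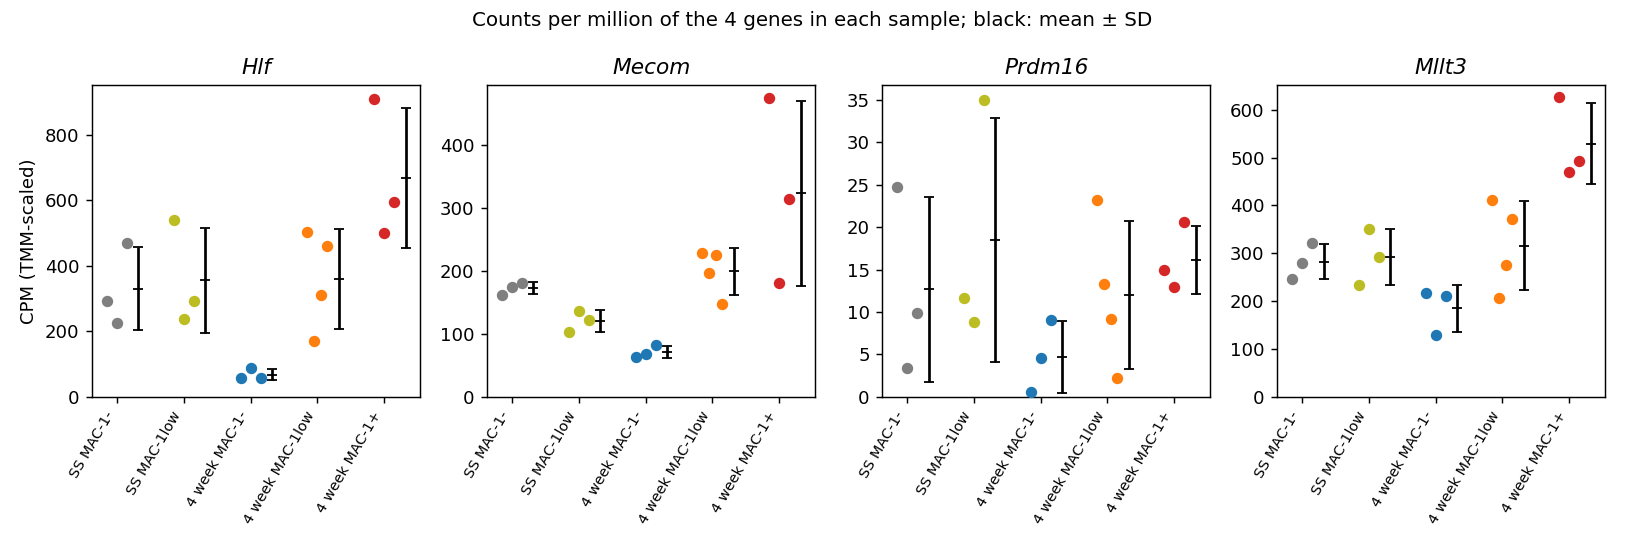
CPM of *Hlf*, *Mecom*, *Prdm16* and *Mllt3* (vertical axes from 0, each with its own range) in the samples of the 5 populations, as points, with the mean ± SD in black beside them. For *Hlf* and *Mecom* the 3 samples of 4 week MAC-1- lie below all other samples, and for *Mllt3* the 3 samples of 4 week MAC-1+ lie above all others.

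By identifier all 4 were matched to GENCODE M21 (GRCm38), where each is a protein coding gene on the minus strand. *Hlf* (ENSMUSG00000003949) lies at chr11:90336536-90390895 and *Mecom* (ENSMUSG00000027684) at chr3:29951296-30548008. *Mllt3* (ENSMUSG00000028496) lies at chr4:87769925-88033364 and *Prdm16* (ENSMUSG00000039410) at chr4:154316125-154636873. The library kit does not mark the strand of a read, so reads from the 81 exon bases that *Mecom* shares with its antisense gene *Mecomos* cannot be assigned, and *Mecomos* had at most 288 counts in a sample. The same holds for 109 exon bases that *Prdm16* shares with *B230104I21Rik* on the opposite strand, which had 0 counts in all samples. Counts per gene also do not separate the MDS1-EVI1 and EVI1 transcripts of *Mecom*. The longest stretch that a *Mecom* and a *Prdm16* transcript share exactly is 36 bases.

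RefSeq promoter windows (GRCm38.p6, from 250 bases before to 50 bases after a transcription start) were available for all 4 genes, as 2 windows for *Mecom*, 2 for *Mllt3*, and 1 each for *Hlf* and *Prdm16*. The sequences below are shown for a stretch that the relatives *Mecom* and *Prdm16* share, and as the letters in which motifs were searched. The first line is a 24-base stretch, in capitals throughout, that stands unchanged at chr3:30509710-30509733 in *Mecom* and at chr4:154636841-154636864 in *Prdm16*, in exons of both genes and just after the start in both windows. It was found in 2 of 32851 windows. The other lines give the 100 bases just upstream of the starts of *Prdm16* (chr4:154636874-154636973), *Hlf* (chr11:90390918-90391017) and *Mllt3* (chr4:88033408-88033507), all 5′ to 3′ on the minus strand and in lower case, since none of the motifs searched was found in them.
Mecom and Prdm16, shared: GCGCATGTGCGAAGGTGTCCAAAC
Prdm16, upstream: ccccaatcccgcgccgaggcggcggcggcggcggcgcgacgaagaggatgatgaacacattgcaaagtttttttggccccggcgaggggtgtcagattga
Hlf, upstream: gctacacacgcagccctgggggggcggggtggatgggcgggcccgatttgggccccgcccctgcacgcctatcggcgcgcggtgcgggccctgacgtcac
Mllt3, upstream: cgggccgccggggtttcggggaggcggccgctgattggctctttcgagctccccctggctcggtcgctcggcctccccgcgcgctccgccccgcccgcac
The windows of *Hlf* and *Prdm16* and this *Mllt3* window were 67.3%, 61.0% and 70.3% G and C, against a median of 52.7% over all windows, while the *Mecom* windows were at 52.0% and 49.7%. On both strands of the 6 windows, the GATA motif AGATAA, the ETS motif GGAAGT, the RUNX motif TGTGGT, the PAR bZIP motif TTACGTAA and the E-box CACGTG were each found in 0 windows, where 11.2%, 23.8%, 16.8%, 0.119% and 7.15% of all windows hold them. That says only that these letters do not stand in these windows.

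*Hlf*, the quiescence factor, stood at 293, 225 and 470.5 CPM in the SS MAC-1- samples and at 538, 237 and 291 CPM in the SS MAC-1low samples. In the 4 week MAC-1- samples it was at 57.0, 87.2 and 56.7 CPM, in the 4 week MAC-1low samples at 504, 169, 309 and 461 CPM, and in the 4 week MAC-1+ samples at 909.5, 499 and 594 CPM. All 4 week MAC-1- samples were thus below every other sample, and the 4 week MAC-1low samples overlapped with both SS populations and with 4 week MAC-1+. Here and for *Mecom* and *Mllt3* below, the share of all genes that set a population apart from every other sample was not counted. The means were 67.0 ± 17.5 CPM (SD, n = 3) in 4 week MAC-1-, 361 ± 153 (n = 4) in 4 week MAC-1low and 668 ± 215 (n = 3) in 4 week MAC-1+ HSCs. At 4 weeks *Hlf* was 9.96-fold higher in MAC-1+ HSCs than in MAC-1- HSCs (log2 fold change 3.32 ± 0.45, SE; edgeR, adjusted p = 0.00171), and without replicate 3 of 4 week MAC-1+ the log2 fold change was 3.42 (adjusted p = 0.00511). It was 5.38-fold higher in the MAC-1low HSCs than in the MAC-1- HSCs of 4 weeks (log2 fold change 2.43 ± 0.42, adjusted p = 0.03265), a call that was lost without any 1 of the 4 week MAC-1- samples or without replicate 4 of 4 week MAC-1low (adjusted p from 0.1018 to 0.1809). Against SS MAC-1- HSCs it was lower in the MAC-1- HSCs of 4 weeks (log2 fold change -2.30 ± 0.43, adjusted p = 0.0529), and against SS MAC-1low HSCs as well (-2.41 ± 0.43, adjusted p = 0.0360). Both calls were lost without any 1 of the 4 week MAC-1- samples, and without 1 SS sample each, replicate 3 of SS MAC-1- (adjusted p = 0.14) and replicate 1 of SS MAC-1low (adjusted p = 0.1189). In the order of its levels, 4 week MAC-1-, then SS MAC-1-, SS MAC-1low and 4 week MAC-1low, then 4 week MAC-1+, only the first step passed the test, and the 3 populations in the middle had means between 330 and 361 CPM. These are sums over sorted cells, in which fewer expressing cells and less RNA per cell cannot be told apart.

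*Mecom*, the zinc finger regulator, had the tightest levels of the 4 in SS MAC-1- HSCs, at 162, 174 and 180.4 CPM. It was at 102, 137 and 123 CPM in SS MAC-1low samples, all below the SS MAC-1- samples, and at 63.1, 67.2 and 82.5 CPM in 4 week MAC-1- samples, below every other sample. The 4 week MAC-1low samples held 228, 196, 225 and 147 CPM and the 4 week MAC-1+ samples 475, 181.5 and 315 CPM, so that the lowest 4 week MAC-1+ sample lay inside the range of 4 week MAC-1low. Means were 70.9 ± 10.2 CPM (SD, n = 3) in 4 week MAC-1-, 199 ± 37.5 (n = 4) in 4 week MAC-1low and 324 ± 147 (n = 3) in 4 week MAC-1+ HSCs. The 4 week MAC-1+ mean was 4.56-fold that of 4 week MAC-1- in the fit (log2 fold change 2.19 ± 0.30, adjusted p = 0.00187) and 2.23 on the log2 scale without replicate 3 (adjusted p = 0.00725). The difference between 4 week MAC-1low and MAC-1- was 2.81-fold (log2 fold change 1.49 ± 0.29, adjusted p = 0.0576), and this call was lost without any 1 of the 4 week MAC-1- samples and without replicate 1, 2 or 3 of 4 week MAC-1low (adjusted p from 0.1009 to 0.3123). *Mecom* was also higher in the MAC-1+ HSCs of 4 weeks than in SS MAC-1low HSCs (log2 fold change 1.43 ± 0.30, adjusted p = 0.0544), which was lost without any 1 SS MAC-1low sample and without replicate 1 or 3 of 4 week MAC-1+ (adjusted p from 0.1198 to 0.1681). The SS MAC-1low and SS MAC-1- samples did not overlap, yet the difference did not pass the test (log2 fold change -0.51 ± 0.29, adjusted p = 0.608). The order of the means was 4 week MAC-1-, SS MAC-1low, SS MAC-1-, 4 week MAC-1low and 4 week MAC-1+, and no step between neighbours passed the test.

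*Prdm16*, the relative of *Mecom*, was the rarest, with 9 to 680 counts in a sample. It was at 24.7, 3.35 and 9.89 CPM in SS MAC-1-, at 11.7, 8.84 and 35.1 CPM in SS MAC-1low and at 0.565, 4.51 and 8.997 CPM in 4 week MAC-1- samples. The 4 week MAC-1low samples held 23.2, 13.3, 9.20 and 2.25 CPM and the 4 week MAC-1+ samples 14.9, 12.9 and 20.65 CPM. Only 4 week MAC-1+ stayed within a narrow range, and its samples were all above those of 4 week MAC-1-. None of its 10 comparisons between populations passed the test. Between MAC-1+ and MAC-1- at 4 weeks the log2 fold change was 1.78 ± 1.11 (adjusted p = 0.541) with an approximate 95% interval from -0.40 to 3.96, a range that holds 0 and both the *Mecom* and the *Hlf* change. Without replicate 3 of 4 week MAC-1+ this log2 fold change was 1.58 ± 1.24 (edgeR, adjusted p = 0.6645).

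*Mllt3*, the chromatin reader, was at 247, 280.2 and 320.4 CPM in SS MAC-1- and at 234, 351 and 292 CPM in SS MAC-1low samples. It was at 216, 128.5 and 209.7 CPM in 4 week MAC-1-, at 411, 207, 275.5 and 371 CPM in 4 week MAC-1low and at 627, 469 and 492.5 CPM in 4 week MAC-1+ samples. The 4 week MAC-1+ samples were above all 13 others, and 1 of the 4 week MAC-1low samples fell into the range of 4 week MAC-1-. Means were 185 ± 48.9 CPM (SD, n = 3) in 4 week MAC-1-, 316 ± 92.3 (n = 4) in 4 week MAC-1low and 529.6 ± 85.4 (n = 3) in 4 week MAC-1+ HSCs. The difference of 4 week MAC-1+ from 4 week MAC-1- was 2.87-fold (log2 fold change 1.52 ± 0.27, adjusted p = 0.00992), and 1.60 on the log2 scale without replicate 3 of 4 week MAC-1+ (adjusted p = 0.0245). Against 4 week MAC-1low the log2 fold change of 4 week MAC-1+ was 0.74 ± 0.25 without overlap of the samples, but it did not pass the test (adjusted p = 0.626). Neither did 4 week MAC-1low against MAC-1- (0.77 ± 0.26, adjusted p = 0.478). In the order 4 week MAC-1-, SS MAC-1-, SS MAC-1low, 4 week MAC-1low and 4 week MAC-1+, no neighbours were called, and the 3 in the middle had means between 282.5 and 316 CPM.

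Per length, with CPM divided by the kilobases of annotated exon (6.681 for *Hlf*, 12.427 for *Mecom*, 12.004 for *Mllt3* and 9.321 for *Prdm16*), *Hlf* had the highest level and *Prdm16* the lowest. *Hlf* was above *Mllt3* in 14 of 16 samples, *Mllt3* above *Mecom* in all 16, and *Mecom* above *Prdm16* in all 16. The 2 exceptions were replicates 1 and 3 of 4 week MAC-1-, where *Hlf* stood at 8.53 and 8.49 CPM per kb and *Mllt3* at 18.0 and 17.5. In 4 week MAC-1+ HSCs the levels were 99.9 ± 32.1 for *Hlf*, 44.1 ± 7.11 for *Mllt3*, 26.1 ± 11.8 for *Mecom* and 1.73 ± 0.43 CPM per kb for *Prdm16* (SD, n = 3).

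**Figure D2:**
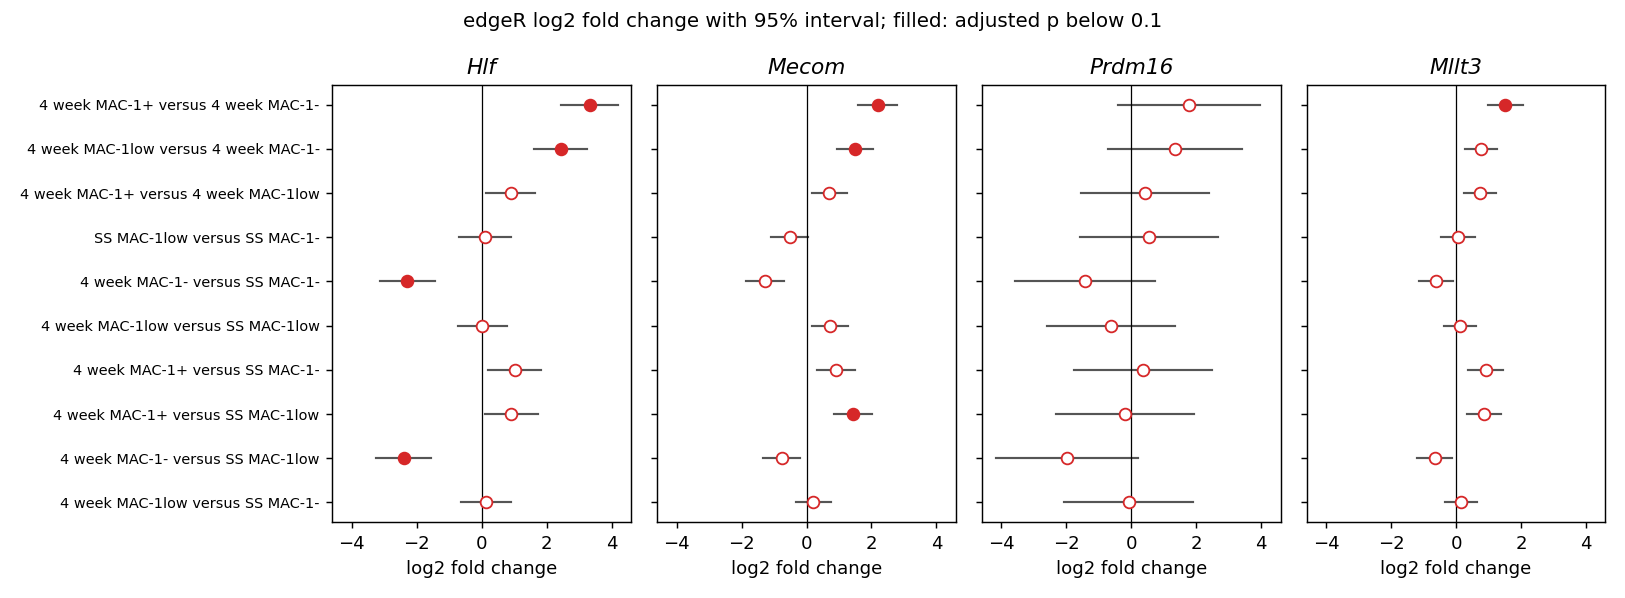
Log2 fold change (horizontal axis) of each gene in the 10 comparisons between populations (rows, first population relative to the second), with the approximate 95% interval as a line and filled points where the adjusted p of edgeR was below 0.1. Of the 40 points 8 are filled, 4 of *Hlf*, 3 of *Mecom*, 1 of *Mllt3* and 0 of *Prdm16*, and the intervals of *Prdm16* are the widest.

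Between the MAC-1+ and MAC-1- HSCs of 4 weeks, 3 of the 4 genes, *Hlf*, *Mecom* and *Mllt3*, rose at an adjusted p below 0.1, where 3.25% of all genes tested were called in either direction and 1.19% as higher. The samples of the populations did not overlap for 4 of the 4 genes, which held for 10.2% of all genes in that direction. The median log2 fold change of the 4 was 1.99, beside 0.067 over all genes. *Hlf*, *Mecom* and *Mllt3* had been picked by the study from these samples as HSC genes that increase with MAC-1, so their count is not independent evidence of a difference or of its direction. The megakaryocyte markers moved the other way in the same comparison, from between 4251 and 6744 CPM in 4 week MAC-1- to between 156 and 198 CPM in 4 week MAC-1+ samples, and the T and NK cell and the erythroid markers differed as given above. The part of these markers in the changes was not tested. Without replicate 3 of 4 week MAC-1+, where the neutrophil markers were high, the 3 genes stayed called while the number of all genes called went from 444 to 256.

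In 4 week MAC-1low against MAC-1- HSCs, *Hlf* and *Mecom*, 2 of the 4, rose, where 0.278% of all genes were called and 0.161% as higher, and the samples of both genes did not overlap, as for 5.23% of all genes. DESeq2 called *Mllt3* too (adjusted p = 0.0977), whereas edgeR called 0 of the 4 with only the groups compared, and 1 when detected genes per sample entered as a covariate. Without any 1 of the 4 week MAC-1- samples edgeR called neither *Hlf* nor *Mecom*. In 4 week MAC-1+ against MAC-1low HSCs, 0 of the 4 were called by edgeR, which called 0 genes or 0.0% of all (936 at an unadjusted p under 0.05, 3 of the 4 among them), and 0 of the 4 were called by DESeq2 and limma-voom, which called 318 genes and 1 gene. There the samples did not overlap for *Mllt3* alone, as for 3.75% of all genes. The means of all 4 genes rose from 4 week MAC-1- to MAC-1low to MAC-1+, as did those of 25.2% of all genes.

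Between the SS populations 0 of the 4 genes were called, beside 0.0146% of all genes (2 genes), and 0 of the 4 had an unadjusted p under 0.05. DESeq2 called 0 of the 4 and 737 genes in all, and limma-voom called 0 genes. *Mecom* was the 1 gene of the 4 whose samples did not overlap, with SS MAC-1low lower, as for 5.38% of all genes. The log2 fold changes of *Hlf* and *Mllt3* were 0.11 ± 0.41 and 0.05 ± 0.27, with approximate 95% intervals from -0.70 to 0.91 and from -0.47 to 0.57.

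In 4 week MAC-1- against SS MAC-1- HSCs *Hlf* was lower, 1 of 4 called, beside 0.432% of all genes (0.22% as lower). The 4 week samples of *Hlf*, *Mecom* and *Mllt3* were all lower without overlap, as for 7.4% of all genes. The log2 fold change of *Mecom* in this comparison was -1.28 ± 0.30 (adjusted p = 0.124) and that of *Mllt3* -0.61 ± 0.27 (adjusted p = 0.449). Against SS MAC-1low HSCs the same 4 week MAC-1- samples showed *Hlf* called, 1 of 4 beside 0.505%, and *Hlf*, *Mecom* and *Mllt3* lower without overlap, as for 8.1% of all genes. In the 4 week MAC-1low population 0 of 4 were called against SS MAC-1low (0.0439% of all genes) and 0 of 4 against SS MAC-1- (0.19%). DESeq2, which called 518 and 839 genes in all, and limma-voom also called 0 of 4 in both, and an unadjusted p under 0.05 was reached by 1 of 4 against SS MAC-1low and by 0 of 4 against SS MAC-1-. The gene at that p was *Mecom*, whose 4 week MAC-1low samples lay above those of SS MAC-1low without overlap, as for 5.44% of all genes (log2 fold change 0.72 ± 0.28, adjusted p = 0.497).

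The 4 week MAC-1+ HSCs stood above SS MAC-1- HSCs without overlap for *Hlf*, *Mecom* and *Mllt3*, as for 8.36% of all genes, but edgeR called 0 of 4, beside 2.36% of all genes. The log2 fold changes were 1.02 ± 0.41 for *Hlf*, 0.91 ± 0.29 for *Mecom* and 0.91 ± 0.27 for *Mllt3*, with adjusted p of 0.291, 0.172 and 0.1345 and 3 of 4 at an unadjusted p under 0.05. DESeq2 called all 3 of these (adjusted p of 0.0889, 0.0330 and 0.0187) and limma-voom 0 of 4. Against SS MAC-1low HSCs *Mecom* was called, 1 of 4 beside 1.42%. Without replicate 3 of 4 week MAC-1+ it was not (adjusted p = 0.1198), and 73 genes were called in place of 194. In all samples *Mecom* and *Mllt3* did not overlap in this comparison, as for 7.71% of all genes.

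A joint test for any difference among the 5 populations called 3 of 4 genes, *Mecom* (adjusted p = 0.0137), *Hlf* (adjusted p = 0.0160) and *Mllt3* (adjusted p = 0.0674), where 2.22% of all genes were called. The study had picked these 3 from genes that differed among these populations in these samples, so their being called is not independent evidence of a difference. *Prdm16* had an adjusted p of 0.879. The difference between MAC-1low and MAC-1- HSCs was then compared between 4 weeks and SS as an interaction. For *Mecom* it was 2.00 ± 0.41 on the log2 scale (adjusted p = 0.160), since MAC-1low was higher than MAC-1- in all samples at 4 weeks and lower in all samples in SS. For *Hlf* it was 2.32 ± 0.58 (adjusted p = 0.285), for *Mllt3* 0.72 ± 0.37 and for *Prdm16* 0.80 ± 1.49. With edgeR 0 of 4 passed, beside 0.0586% of all genes, and 2 of 4 had an unadjusted p under 0.05. DESeq2 called 2 of 4, *Hlf* (adjusted p = 0.00216) and *Mecom* (adjusted p = 0.000329), and limma-voom 0.

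**Figure D3:**
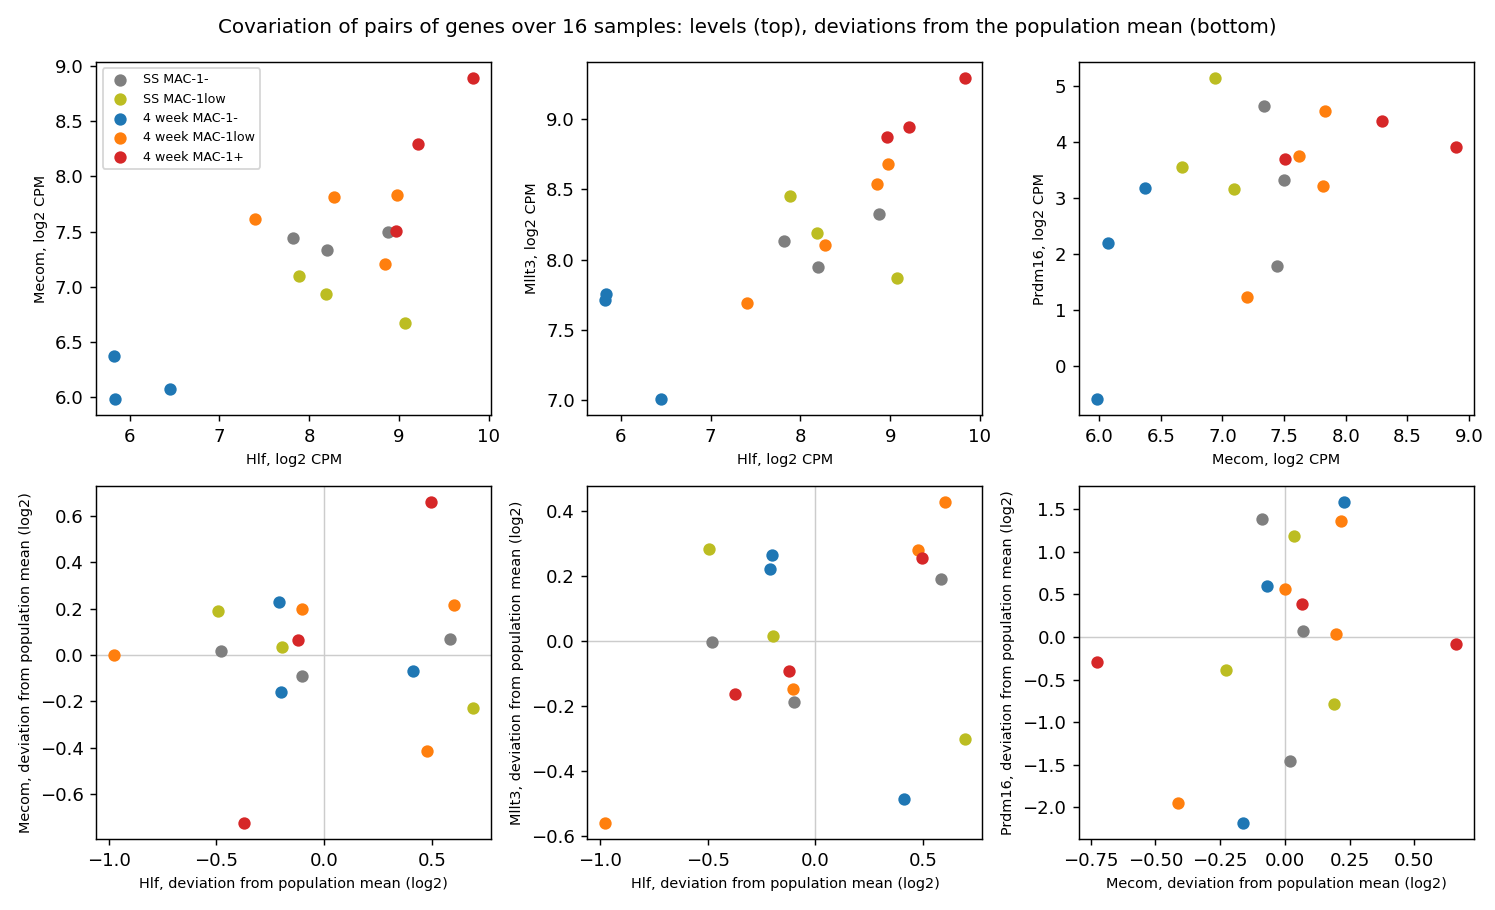
Log2 CPM of pairs of genes in the 16 samples (top) and the same values as deviations from the mean of the sample's population (bottom), colored by population. In the top row the 4 week MAC-1- samples lie at the lower left, and in the bottom row the points show no such spread along a diagonal, with r of 0.11 (*Hlf* and *Mecom*), 0.29 (*Hlf* and *Mllt3*) and 0.34 (*Mecom* and *Prdm16*).

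Over the 16 samples *Hlf*, *Mecom* and *Mllt3* ran together more closely than any of them with *Prdm16*. Pearson's r of log2 CPM was 0.79 for *Hlf* with *Mecom*, 0.79 for *Hlf* with *Mllt3* and 0.80 for *Mecom* with *Mllt3*. The pairs with *Prdm16* were lower, at 0.53 with *Hlf*, 0.52 with *Mecom* and 0.34 with *Mllt3*, and the median of the 6 pairs was 0.66. Without replicate 3 of 4 week MAC-1+ the 3 pairs without *Prdm16* were at 0.77 each, and those with it at 0.50, 0.48 and 0.29. These are descriptions over 16 samples that fall into 5 populations and share a library protocol and the scaling of each library. The study had picked *Hlf*, *Mecom* and *Mllt3* from these samples as genes that increase with MAC-1. Their closer r over all samples is thus not independent evidence that they run together. *Prdm16* was not named among those genes and had the lowest mean count of the 4 (242.5).

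The share of the variance in log2 CPM that lay between populations was 83.6% for *Hlf*, 84.2% for *Mecom*, 73.7% for *Mllt3* and 35.9% for *Prdm16*, beside a median of 32.1% over all genes tested. Within populations the pooled SD of log2 CPM was 0.57 for *Hlf*, 0.36 for *Mecom*, 0.34 for *Mllt3* and 1.35 for *Prdm16*, with a median of 1.43 over all genes tested. The study had picked *Hlf*, *Mecom* and *Mllt3* from genes that differed among these populations, so their high shares are not independent evidence. Their mean counts were 7134, 3570 and 6330, beside a median of 300.2 over all genes tested, so these medians come from genes with fewer counts. With the population means taken out, r fell to 0.11 for *Hlf* with *Mecom*, 0.29 for *Hlf* with *Mllt3* and 0.31 for *Mecom* with *Mllt3*. The pairs with *Prdm16* then had r of 0.02 (*Hlf*), 0.34 (*Mecom*) and -0.22 (*Mllt3*).

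Among the 10 samples of 4 weeks all 6 pairs were positive, from 0.46 for *Prdm16* with *Mllt3* to 0.90 for *Hlf* with *Mecom*. Among the 6 SS samples 4 of 6 were negative, at -0.34 for *Hlf* with *Mecom* and -0.37 for *Hlf* with *Mllt3*. Replicate 1 of SS MAC-1low, for example, held the highest *Hlf* (538 CPM) and the lowest *Mecom* and *Mllt3* (102 and 234 CPM) of the SS samples. Without the 3 samples of 4 week MAC-1-, r was 0.75 for *Hlf* with *Mllt3*, 0.67 for *Mecom* with *Mllt3* and 0.48 for *Hlf* with *Mecom*, and at most 0.17 for the pairs with *Prdm16*. So the pairs of *Mllt3* with *Hlf* and *Mecom* fell least without that population, while *Hlf* with *Mecom* fell from 0.79 to 0.48. With all population means taken out, these 2 pairs of *Mllt3* were at 0.295 and 0.312. The pairs with *Prdm16* were also lower without that population, in which 1 of the 3 samples had 9 counts of *Prdm16*. Whether they rested on that 1 sample was not tested.

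**Figure D4:**
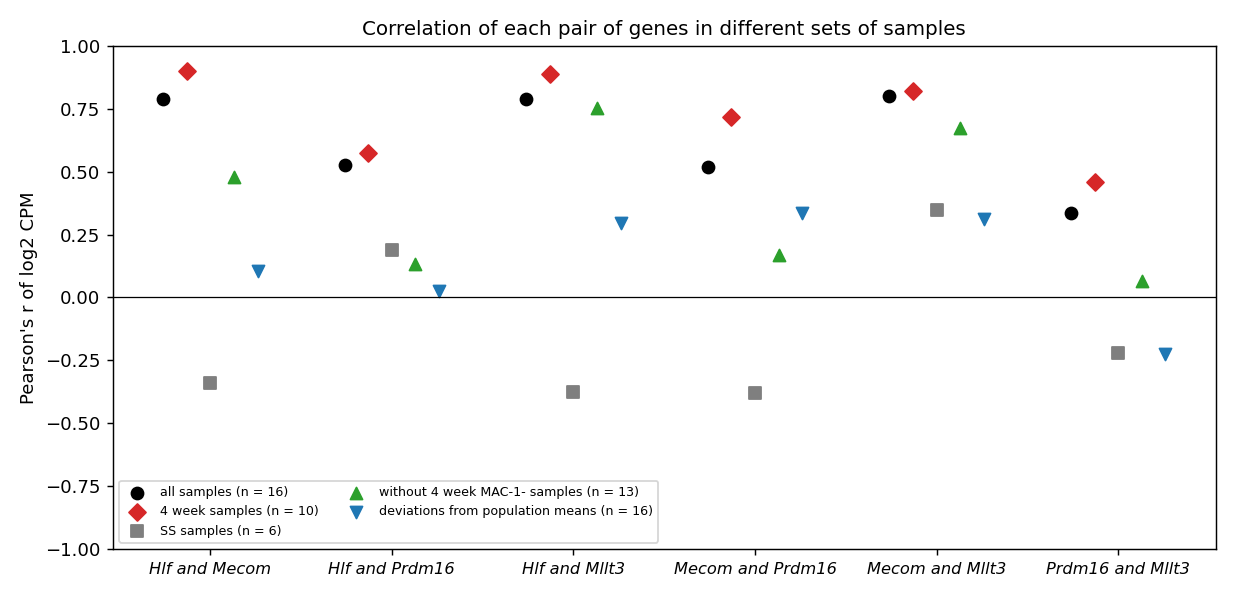
Pearson's r of log2 CPM (vertical axis) for the 6 pairs of genes in all 16 samples, in the 10 samples of 4 weeks, in the 6 SS samples, in the 13 samples outside 4 week MAC-1-, and in deviations from the population means. All 6 pairs are positive in all samples and at 4 weeks, and 4 of 6 are negative in SS.

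Among 11069 other genes with a mean of at least 50 counts, the ones most like *Hlf* by r over the 16 samples were *Nrip1* (0.89), *Gimap6*, *Gbp2*, *Ahnak* and *Ccl4* (0.85), with *Mecom* in place 29 and *Mllt3* in place 30. *Nrip1*, a nuclear receptor corepressor, was at 120.4 ± 20.6 CPM (SD, n = 3) in 4 week MAC-1- and at 313 ± 33.1 CPM (n = 3) in 4 week MAC-1+ HSCs. The genes most like *Mecom* were *Ubl3* (0.93), *Tsc22d1*, *Fam134b*, *Myof* and *Gimap6* (0.84), with *Mllt3* in place 15 and *Hlf* in place 20. *Ubl3*, a ubiquitin-like protein, was at 28.9 ± 4.89 CPM (n = 3) in 4 week MAC-1- and at 167 ± 66.2 CPM (n = 3) in 4 week MAC-1+ HSCs. *Gimap6*, a GTPase of immune cells, stood in both lists.

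The genes most like *Mllt3* were *Fcho2* (0.87), *Gcnt2*, *Map4k2*, *Stxbp4* and *Pnisr* (0.83), with *Mecom* in place 15 and *Hlf* in place 19. Those most like *Prdm16* were *Sfi1* (0.84), *Rgp1*, *Sfxn4*, *Fndc3b* and *Gbp8* (0.78), with *Hlf* in place 202, *Mecom* in place 221 and *Mllt3* in place 1003. Of the latter, *Fndc3b* had samples at 0 in 3 populations. The genes that ran most against the mean of the 4 standardized genes were *Pf4* (-0.91), *Cenpw*, *Cdkn3*, *Lims1* and *Rchy1* (-0.87). *Pf4*, the platelet factor 4 of megakaryocytes, was at 4957 ± 1310 CPM (n = 3) in 4 week MAC-1- and at 130 ± 26.0 CPM (n = 3) in 4 week MAC-1+ HSCs, and *Cenpw*, a kinetochore protein, at 494 ± 71.4 and 174 ± 29.5 CPM.

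**Figure D5:**
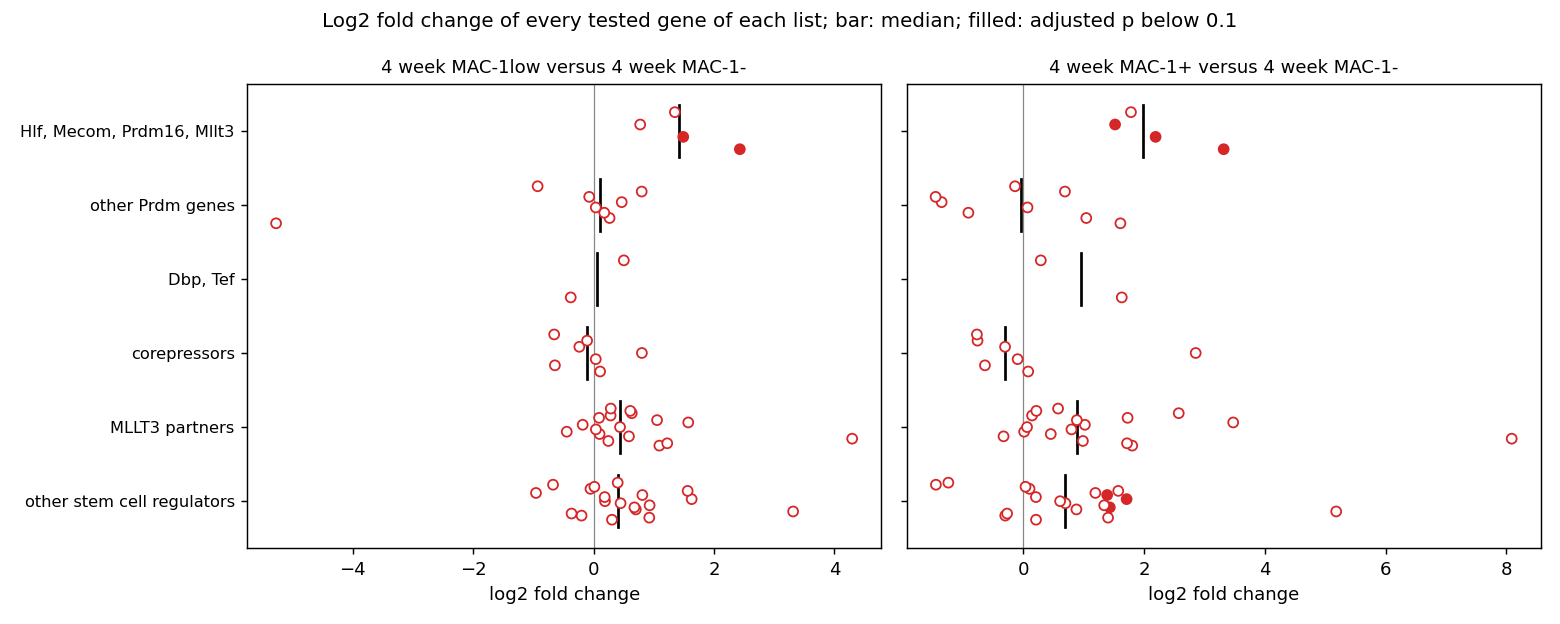
Log2 fold change (horizontal axes) of each tested gene of the lists for 4 week MAC-1low (left) and MAC-1+ (right), both set against MAC-1- HSCs of the same time, with the median of each list as a bar and filled points at an adjusted p below 0.1. On the right 3 of the other stem cell regulators are filled above 0, and none of the genes of the other lists beside *Hlf*, *Mecom* and *Mllt3*.

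Genes that work beside the 4 were then read by list in 4 week MAC-1+ against MAC-1- HSCs. Of 13 other *Prdm* genes 8 were tested, and 0 were called in either direction, with a median log2 fold change of -0.03. Of the PAR bZIP relatives of *Hlf*, *Dbp* and *Tef* were tested and 0 were called, at 1.63 ± 2.17 and 0.29 ± 1.91. Of 7 corepressors that EVI1 and PRDM16 bind, such as *Ctbp1* and *Hdac1*, 0 of 7 were called, with a median of -0.30. No gene of these 3 lists was called by edgeR in 4 week MAC-1low against MAC-1- HSCs either. In these lists an unadjusted p under 0.05 was reached in 4 week MAC-1+ by 0 of 8, 0 of 2 and 2 of 7, beside 13.4% of all genes, and in 4 week MAC-1low by 0 in each, beside 7.25%. The 2 corepressors had opposite signs, *Ehmt2* at 2.85 ± 1.02 (adjusted p = 0.224) and *Hdac2* at -0.76 ± 0.28 (adjusted p = 0.249), and without replicate 3 of 4 week MAC-1+ neither had an unadjusted p under 0.05. Without that replicate 0 genes of the 3 lists were called, and the median of the *Prdm* genes was -0.72. Then 1 of 8 *Prdm* genes, *Prdm4*, had an unadjusted p under 0.05 (edgeR, log2 fold change -3.96 ± 1.67).

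Of 19 genes listed around AF9 17 were tested. The list holds genes of the super elongation, DOT1L and Polycomb complexes. It also holds *Mllt1*, the paralog of *Mllt3*, and *Kmt2a*, *Yeats2* and *Yeats4*, so its counts do not describe these complexes alone. With edgeR 0 were called, 16 of 17 had a log2 fold change above 0, 5 had an unadjusted p under 0.05, beside 13.4% of all genes, and the median was 0.89, beside 0.067 over all genes. Without replicate 3 of 4 week MAC-1+ these were 15 of 17, 3 and a median of 0.67, with 0 called. In that fit 7076 of the 14532 genes tested had a log2 fold change above 0, and 1678 had an unadjusted p under 0.05. *Aff4*, the scaffold of the super elongation complex, stood at 102.7 ± 62.6 CPM (SD, n = 3) in 4 week MAC-1+ and 31.3 ± 17.5 CPM (n = 3) in MAC-1- HSCs (log2 fold change 1.72 ± 0.60, adjusted p = 0.211). *Ell2*, an elongation factor, stood at 81.1 ± 29.97 and 7.29 ± 8.93 CPM (log2 fold change 3.47 ± 1.18, adjusted p = 0.187). In 4 week MAC-1low against MAC-1- HSCs 0 of 17 were called, with a median of 0.44, beside 0.047 over all genes, and 2 at an unadjusted p under 0.05, beside 7.25%.

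Of 19 other regulators of HSC self-renewal and identity 3 rose in 4 week MAC-1+ against MAC-1- HSCs, 0 fell and 16 did not pass, beside 3.25% of all genes called and 1.19% as higher, with a median log2 fold change of 0.70. Without replicate 3 of 4 week MAC-1+ only *Hoxa9* of the 19 was called (adjusted p = 0.0601), and *Msi2* and *Lyl1* were not (adjusted p = 0.141 and 0.164). *Hoxa9*, a homeobox factor of HSC expansion, was at 254 ± 58.9 CPM (SD, n = 3) against 94.1 ± 43.8 CPM (n = 3), a log2 fold change of 1.43 ± 0.34 (adjusted p = 0.0418). *Msi2*, an RNA-binding protein, was at 170.4 ± 80.4 against 65.1 ± 28.98 CPM (1.39 ± 0.36, adjusted p = 0.0658), with samples that overlapped. *Lyl1*, a partner of the SCL program, was at 32.4 ± 6.98 against 9.88 ± 4.802 CPM (1.71 ± 0.49, adjusted p = 0.0969). *Lmo2*, which had the highest CPM of the list, stood at 1142 and 749 CPM (0.61 ± 0.18, adjusted p = 0.127), and *Bmi1* and *Meis1* had log2 fold changes of 0.21 ± 0.41 and 0.21 ± 0.27. In 4 week MAC-1low against MAC-1- HSCs 0 of the 19 were called and 5 had an unadjusted p under 0.05, beside 7.25% of all genes. Among the 4 regulators and these 19, the changes of *Hlf* and *Mecom* were the only ones called in both comparisons by edgeR.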

How the data were processed

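RNA of sorted HSCs was amplified with SMART-Seq v4, which adds no molecular identifiers, and sequenced as Nextera XT libraries. The authors aligned reads with STAR in an nf-core pipeline and deposited 1 table of counts per gene and sample, without normalization. Not given in the sources used here are the counting program, the genome build and the annotation, and the labels' processing notes name DESeq2. Samples were mapped to populations by their labels. All 16 samples of 5 populations were fitted in 1 model with edgeR 4.0.16 (R 4.3.3; TMM factors, default filter on low counts, robust quasi-likelihood test, 1 mean per population), and p-values were adjusted by Benjamini-Hochberg over all genes tested, with a threshold of 0.1. Log2 CPM used a prior count of 2. Samples of the same replicate number did not deviate together (r from -0.025 to 0.040 over 30 pairs). The sample descriptions also hold running numbers, which follow the replicate numbers in SS but not throughout at 4 weeks. There replicates 2 and 3 of 4 week MAC-1- are numbered next to replicates 3 and 4 of 4 week MAC-1low. The check by replicate number and the replicate block did not follow the running numbers for these samples. Nothing states what they mark, so they were not used to pair samples, and whether samples of different populations came from the same mice is not known here. Replicate pairs of a population differed by more than counting noise. Approximate 95% intervals are the estimate with about 2 SE on either side. Alternatives were DESeq2 1.42.0, limma-voom 3.58.1 with sample weights, other scalings, other filters, only the groups compared, the number of detected genes as covariate, the replicate block, a threshold of 0.05, and leaving out each sample. The related genes and the pairwise correlations without replicate 3 of 4 week MAC-1+ were added after seeing the data. The tests were first run on simulated counts that varied less between samples than these data do, so that run does not show how the tests perform here.

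The 4 genes and the lists of related genes and markers were chosen with earlier results of these data known. Genes named beside the 4 are those of the lists that were called or had high CPM, the 5 genes most like each by r among genes with a mean of at least 50 counts, and the 5 that ran most against all 4. *Aff4*, *Ell2* and *Ehmt2* were chosen after their values were seen, *Ehmt2* because its unadjusted p was under 0.05. Plots were drawn with matplotlib. Protein sequences were not analysed here, and some genes of the lists are not reported here.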

Additional observations from a re-analysis of the deposited data

Results flagged for a closer look

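For *Mecom*, the estimated difference between MAC-1low and MAC-1- HSCs ran in opposite directions at the 2 stages, though in SS it did not pass the test (log2 fold change -0.51 ± 0.29, edgeR, adjusted p = 0.608). At 4 weeks all MAC-1low samples (147 to 228 CPM) were above all MAC-1- samples (63.1 to 82.5 CPM), as for 5.23% of all genes. In SS all MAC-1low samples (102 to 137 CPM) were below all MAC-1- samples (162 to 180.4 CPM), as for 5.38% of all genes. The difference of the log2 differences was 2.00 ± 0.41 and did not pass the test in edgeR (adjusted p = 0.160). It passed with DESeq2 (adjusted p = 0.000329), with no filter on low counts (0.0850), with only the groups compared (0.0643), and without replicate 1 or 2 of 4 week MAC-1+ (0.0929 and 0.0741). Over the other alternatives the adjusted p reached at most 0.4174, and at most 0.4678 when 1 sample was left out. In the group of 4 samples, 4 week MAC-1low, no value of the 4 genes stood apart from the others.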

How the results depend on the processing

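The count of 3 of 4 genes called in 4 week MAC-1+ against MAC-1- HSCs stayed at 3 under all alternatives, with 3 to 3 when 1 sample was left out. The other counts rest on few samples. For 4 week MAC-1low against MAC-1- (2 of 4), it was 1 with the number of detected genes as covariate or a threshold of 0.05, 0 with only the groups compared, and 0 to 2 without 1 sample. Between the MAC-1- populations of 4 weeks and SS (1 of 4), it was 2 with DESeq2, total counts alone or a mean of at least 50 counts, 0 with limma-voom, the covariate, only the groups compared or a threshold of 0.05, and 0 to 2 without 1 sample. Between 4 week MAC-1+ and SS MAC-1- (0 of 4), it was 3 with DESeq2, 1 with total counts alone and 0 to 1 without 1 sample. Between 4 week MAC-1+ and SS MAC-1low (1 of 4), it was 2 with DESeq2, 0 with limma-voom, only the groups compared or a threshold of 0.05, and 0 to 1 without 1 sample. Between 4 week MAC-1- and SS MAC-1low (1 of 4), it was 0 with only the groups compared and 0 to 1 without 1 sample. For the interaction (0 of 4), it was 2 with DESeq2 or no filter, 1 with only the groups compared and 0 to 1 without 1 sample. The joint test (3 of 4) gave 2 with the covariate or a threshold of 0.05 and 2 to 3 without 1 sample. The causes were not tested.

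The replicate number, which the samples share only as a number, was added as a replicate block. It moved the count of 4 week MAC-1low against MAC-1- from 2 to 0 (*Hlf* and *Mecom*, adjusted p = 0.1361), that of the joint test from 3 to 2, and no other count. The running numbers of the sample descriptions would group some 4 week MAC-1- samples otherwise, and a block by them was not fitted.

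Signs turned only for uncalled changes near 0 or of *Prdm16*. Between the MAC-1low populations, *Hlf* was at -0.067 with total counts alone and -0.14 with the replicate block, and *Mllt3* at -0.025 with the block. Between 4 week MAC-1low and SS MAC-1- the block gave -0.10 for *Hlf* and 0.43 for *Prdm16*. Without 1 sample, SS MAC-1low against SS MAC-1- ranged from -0.34 to 0.46 for *Hlf*, from -0.29 to 1.48 for *Prdm16* and from -0.11 to 0.17 for *Mllt3*. In the same way 4 week MAC-1low against SS MAC-1low ranged from -0.22 to 0.44, from -1.17 to 0.19 and from -0.039 to 0.25. Against SS MAC-1-, 4 week MAC-1low ranged from -0.08 to 0.48 for *Hlf* and from -0.62 to 0.85 for *Prdm16*. *Prdm16* in 4 week MAC-1+ ranged from -0.10 to 1.29 against SS MAC-1- and from -0.54 to 0.64 against SS MAC-1low, and its interaction from -0.13 to 1.68.

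The median r of the 6 pairs (0.66) was 0.20 in deviations from the population means, -0.28 in SS samples alone and 0.52 to 0.71 without 1 sample. Without the 4 week MAC-1- samples, a choice made after seeing the data, it was 0.32. Scaling by total counts moved the median of all genes by up to -0.19 (4 week MAC-1- against SS MAC-1low) and upper quartile factors by -0.14 (4 week MAC-1+ against MAC-1-), with all called members called in the same direction. *Prdm16* had 9 counts in its lowest sample and a pooled SD of 1.35 (log2) within populations. Intervals cover these samples only.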
